A study of Mus musculus with 6 samples.

Results

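Genes for interleukins, an interleukin receptor chain and other cytokines of the thymic stroma were followed in sorted medullary thymic epithelial cells (mTECs). They were Il7, Il15, Il15ra, Il1rn, Il18, Il33, Il6, Il1a, Tslp and Kitl. They were taken by symbol, all 10 were found among the 20443 genes of the deposited tables, and all 10 passed the filter for testing. The tested mice, cKO in the labels (3 libraries, cKO_262, cKO_263 and cKO_265), were Jmjd3fl/fl animals with Foxn1-cre, a Cre active in thymic epithelium. Their controls, Con in the labels (3 libraries, Con_253, Con_261 and Con_264), were Jmjd3fl/fl animals without Cre, so both groups carried the floxed alleles and an effect of Cre itself cannot be told apart from loss of Jmjd3. All mice were C57BL/6 and 4 weeks old, and the labels number the libraries without stating whether mice were pooled. Jmjd3, gene symbol Kdm6b, removes methyl groups from lysine 27 of histone H3. The question was whether its loss in the thymic epithelium went with another level of these cytokine genes.

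Thymic epithelium feeds developing T cells with cytokines. IL-7 and KIT ligand keep early thymocytes alive and dividing, TSLP can act through a receptor that shares the IL-7 receptor chain, and IL-15 is held on the IL-15 receptor alpha chain and shown in trans to neighbouring innate-like T cells and natural killer cells. The IL-1 family includes alarm signals of epithelia (IL-1 alpha, IL-18 and IL-33) and the IL-1 receptor antagonist, which occupies the IL-1 receptor without signalling. IL-6 signals through the shared chain gp130.

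Levels were given as FPKM, fragments scaled to transcript length and to library size, so that genes can be compared per length. Values of single libraries are listed in the order cKO_262, cKO_263, cKO_265 and then Con_253, Con_261, Con_264. Differences are cKO minus Con in log2(FPKM + 1), SE is their standard error in limma, and a gene was called changed at a Benjamini-Hochberg adjusted p under 0.05 over all 15720 tested genes. Of the 10 genes 0 were called changed, against 0.0763% of all tested genes (0.0191% higher and 0.0573% lower in cKO). At an unadjusted p under 0.05 there were 2, both higher in cKO mTECs (Il15 and Il1rn), against 14.6% of tested genes in either direction, 6.81% higher and 7.82% lower. The same 2 were the ones whose 3 cKO libraries all lay above the 3 Con libraries, which held for 9.59% of tested genes, and 0 lay wholly below, against 11.9%. The log2 difference was above 0 for 6 of the 10 genes, against 45.3% of tested genes. The median over the 10 genes was 0.03, and over all tested genes it was -0.04. The median of the 10 turned with the libraries used: it was 0.28 without cKO_262 and 0.13 without Con_264, but -0.14 without cKO_265, -0.03 without Con_253, -0.0061 without cKO_263 and -0.22 without both Con_253 and cKO_265. The tables hold no counts, so depth is unknown and no counting error can be given.

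Some properties of the libraries touch these results. The summed FPKM of all genes was 582835 to 641060 in cKO and 461152 to 543156 in Con libraries, without overlap. The median over tested genes was lower in cKO, at 6.16 to 6.49 FPKM, against 6.76 to 6.79 FPKM in Con libraries, also without overlap. The part of this difference in the cytokine values was not tested. On the first principal component cKO_265 scored 53.02, and the other 5 libraries scored -22.7 to 7.42. Con_253 was the library with Y-linked expression (Ddx3y, Eif2s3y, Uty and Kdm5d summed to 12.6 FPKM, against at most 0.110 FPKM elsewhere), so sex did not appear to be matched. Kdm6b itself was at 8.67 to 11.6 FPKM in cKO and 9.998 to 18.1 FPKM in Con libraries, and the ranges overlapped. This sum over the whole gene is no check of the labels, which leave the deleted exons unnamed. All 11 mature mTEC markers were present, with a summed level of 14446 to 17568 FPKM in cKO and 15784 to 17422 FPKM in Con mTECs. Cd74 (7150 to 8896 FPKM in cKO and 8328 to 9024 FPKM in Con mTECs), H2-Aa and H2-Ab1 made up most of this sum. Of the 11 genes Cd40 alone separated the groups (189 to 193 FPKM in cKO and 137 to 151 FPKM in Con mTECs, limma adjusted p = 0.190). The cortical list (10 of 10 genes present) summed to 1112 to 1557 FPKM in cKO and 984 to 1192 FPKM in Con mTECs, which overlapped. Most of it came from Tbata (501 to 728 FPKM in cKO and 307 to 468 FPKM in Con mTECs, without overlap, limma adjusted p = 0.253), Ccl25 and Ctsl, while the cortical proteasome gene Psmb11 was at 3.902 to 5.08 FPKM in cKO and 3.46 to 5.31 FPKM in Con mTECs. Dll4 (4.80 to 5.47 FPKM in cKO and 6.45 to 7.10 FPKM in Con mTECs) was lower in cKO without overlap. So was Cxcl12 (5.93 to 8.47 and 8.96 to 9.64 FPKM). Of the 10 cortical genes 1 was higher and 2 were lower without overlap, against 9.59% and 11.9% of all tested genes. The part of cortical cells in the cytokine values was not tested.

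The 10 genes spanned a wide range of levels, and their order was nearly the same in both groups. Il1rn stood first and lay above 98.6% of tested genes by its mean over the 6 libraries. It made up 75.5% to 78.5% of the summed FPKM of the 10 genes in cKO and 69.6% to 75.3% in Con libraries. Il15 and Il15ra followed, above 89.9% and 85.9% of tested genes, and then Il7, above 51.8%. In cKO mTECs these 4 did not overlap one another, while Tslp reached above Il7 in cKO_265. In Con mTECs Il15 and Il15ra overlapped, with Il15 the higher in 1 of 3 libraries, and Il7 stood apart from all lower genes. Below Il7 the genes Tslp, Il33, Il1a, Il18, Kitl and Il6 had means of 1.22 to 3.94 FPKM in cKO and 1.33 to 3.87 FPKM in Con mTECs, and each neighbour in that order overlapped the next.

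**Figure D1:**
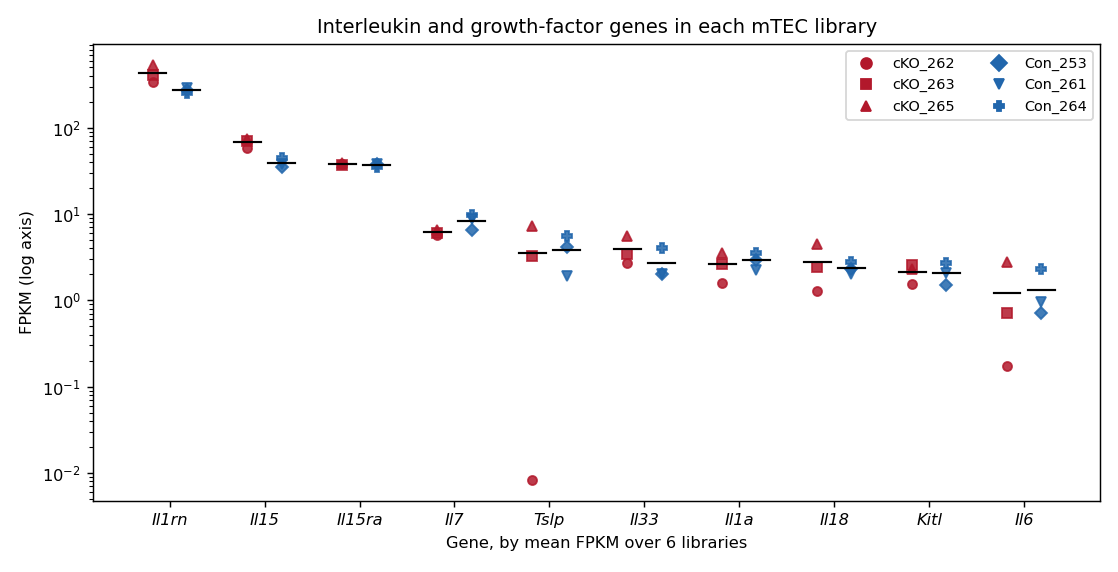
FPKM of each of the 10 genes (log axis) in the 3 cKO libraries (red, left) and 3 Con libraries (blue, right), with black bars for group means, genes ordered by mean. The group means of Il1rn, Il15, Il15ra and Il7 stand above those of the other 6, though Tslp in cKO_265 lies above the cKO points of Il7. Il15 and Il1rn have all cKO points above all Con points, and the lowest point is Tslp in cKO_262 at 0.00827 FPKM.

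Il15, the growth factor of natural killer and innate-like T cells, showed the smallest p of the 10. It was at 58.6, 69.4 and 74.3 FPKM in the cKO libraries, against 34.8, 37.6 and 44.3 FPKM in the Con libraries. Every cKO library lay above every Con library. The means were 67.4 ± 8.07 FPKM in cKO and 38.9 ± 4.88 FPKM in Con mTECs (SD, n = 3 each), a ratio of 1.73. The log2 difference was 0.78 (SE 0.15, 95% interval 0.42 to 1.13) and did not pass the test over all genes (limma, unadjusted p = 0.000834, adjusted p = 0.118). It was 0.63 without both Con_253 and cKO_265, and the adjusted p (limma) ranged from 0.00356 with libraries weighted by limma's arrayWeights to 0.456 without Con_261.

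Il15ra encodes the chain that binds IL-15 and presents it. Its summed level was at 38.3, 37.3 and 39.5 FPKM in the cKO libraries, against 37.8, 37.98 and 35.4 FPKM in the Con libraries. The 6 libraries lay close together and the groups overlapped. Its log2 difference was 0.05 (SE 0.12, 95% interval -0.24 to 0.33, limma adjusted p = 0.896). As a description with no test, the FPKM of Il15 divided by that of Il15ra was 1.53, 1.86 and 1.88 in the cKO libraries, against 0.923, 0.990 and 1.25 in the Con libraries. The ratio was above 1 in every cKO library and in 1 Con library.

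Il7, the main survival cytokine of early thymocytes, went the other way in value. It was at 5.75, 6.07 and 6.56 FPKM in the cKO libraries, against 6.49, 8.78 and 9.61 FPKM in the Con libraries. The groups overlapped through cKO_265 and Con_253 alone. The log2 difference of -0.37 (SE 0.18, 95% interval -0.78 to 0.04) did not pass (limma, unadjusted p = 0.0736, adjusted p = 0.391), and it was -0.27 without Con_264 and -0.56 without both Con_253 and cKO_265. The adjusted p (limma) ranged from 0.0411 with arrayWeights to 0.762 without Con_261. The FPKM of Il15 over that of Il7, again with no test, was 10.2 to 11.4 in cKO and 4.28 to 5.37 in Con libraries. This ratio follows from the values of Il15 and Il7 already given and is no separate result.

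Kitl, the ligand of the KIT receptor on early progenitors, was low in both groups. It ranged over 1.54 to 2.54 FPKM in cKO and 1.504 to 2.68 FPKM in Con mTECs (log2 difference 0.02, SE 0.21, 95% interval -0.47 to 0.51, limma adjusted p = 0.980). The sign turned without Con_253 (-0.12), cKO_263 (-0.08) or cKO_265 (-0.02).

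Tslp, an epithelial cytokine that acts on dendritic cells, had the widest spread of the 10 on the log2 scale. It was at 0.00827, 3.23 and 7.34 FPKM in the cKO libraries, against 4.17, 1.92 and 5.51 FPKM in the Con libraries. The lowest and the highest of the 6 values were both in cKO libraries. The log2 difference was -0.49 (SE 0.68, 95% interval -2.03 to 1.05, limma adjusted p = 0.784), and without cKO_262 it was 0.36. The row of Tslp covers 202779 bases (chromosome 18, 32663642 to 32866420, mm10), while RefSeq gives the gene 4417 bases, and the same locus is listed for 3 rows of Wdr36, whose sum was 13.4 to 14.96 FPKM in cKO and 11.04 to 14.97 FPKM in Con libraries. How reads were divided between these genes is not given in the sources used here, so the value of Tslp is uncertain.

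Among the IL-1 family, Il1rn, the receptor antagonist, was the most abundant. It was at 339, 403 and 536 FPKM in the cKO libraries, against 275, 291 and 252.6 FPKM in the Con libraries. Every cKO library was above every Con library, with cKO_265 the highest. The means were 426 ± 100.4 FPKM in cKO and 273 ± 19.3 FPKM in Con mTECs (SD, n = 3 each), a ratio of 1.56. The log2 difference was 0.62 (SE 0.18, 95% interval 0.20 to 1.04) and did not pass over all genes (limma, unadjusted p = 0.00912, adjusted p = 0.200). It was 0.44 without cKO_265, 0.45 without both Con_253 and cKO_265, and 0.33 after quantile normalization, and the adjusted p (limma) ranged from 0.0193 with arrayWeights to 0.525 without Con_261.

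RefSeq windows from 250 bases before to 50 bases after a transcription start were searched for 7 of the 10 genes. Il7, Il15 and Tslp were not among them, so the motif counts do not cover these genes, and their absence is no result. Il1rn, which is known for a secreted and an intracellular form of its protein, has 3 starts there, in 2 regions some kilobases apart. They are shown because Il1rn was the most abundant of the 10 genes and had 3 rows in the tables, but the tables do not say which transcripts a row holds, so no row is assigned to a start. The first window is chr2:24336610-24336909 and the third chr2:24345121-24345420 (GRCm38.p6, plus strand, 5′ to 3′), and the second, chr2:24345041-24345340, overlaps the third. Capitals mark matches, on either strand, to the AP-1 motif TGANTCA, an NF-kB-type motif (GGG, any 2 bases, TTTCC) or the TATA motif TATAAA.
Il1rn start 1: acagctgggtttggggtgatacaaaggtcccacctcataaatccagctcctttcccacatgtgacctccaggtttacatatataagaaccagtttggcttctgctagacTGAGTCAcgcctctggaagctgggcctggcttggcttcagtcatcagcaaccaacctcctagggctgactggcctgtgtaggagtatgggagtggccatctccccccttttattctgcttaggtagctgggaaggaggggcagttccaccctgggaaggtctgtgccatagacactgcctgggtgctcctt
Il1rn start 3: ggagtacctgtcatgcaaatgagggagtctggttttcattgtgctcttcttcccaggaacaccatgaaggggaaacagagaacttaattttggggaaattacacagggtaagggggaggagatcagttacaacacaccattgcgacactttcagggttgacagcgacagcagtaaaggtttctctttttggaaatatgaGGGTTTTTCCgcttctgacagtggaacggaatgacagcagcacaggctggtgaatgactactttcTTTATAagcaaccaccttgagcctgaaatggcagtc
The first window holds an AP-1 match at position -141 from the start, and the third an NF-kB-type match at -51 and a TATA match on the other strand at 14. No match overlaps another. Of all 32851 RefSeq windows 7.81% hold the AP-1 motif, 1.63% the NF-kB-type motif and 13.6% the TATA motif, and the interferon response core (GAAA, any 2 bases, GAAA), also searched, was in 3.44%. Over the 11 windows of the 7 searched genes the AP-1 motif was in 4, the NF-kB-type motif in 3 (that of Il6 and, at 1 shared site, the second and the third of Il1rn), TATA in 6 and the interferon core in 0. These are matches of letters only.

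Single rows were compared for the 2 genes that had several. Il1rn had 3 rows at 1 locus. The first held most of the gene, at 312, 386 and 507 FPKM in the cKO libraries, against 254, 261.5 and 217 FPKM in the Con libraries, and its groups did not overlap (log2 difference 0.69, SE 0.19, limma adjusted p = 0.253 over 17764 rows). The third went the other way, at 9.09, 9.36 and 5.76 FPKM in the cKO libraries, against 9.90, 12.6 and 17.8 FPKM in the Con libraries (log2 difference -0.66, SE 0.26, limma adjusted p = 0.360), also without overlap. The second was at 8.08 to 23.6 FPKM in cKO and 11.6 to 17.8 FPKM in Con mTECs and overlapped. The first row made up 92.2% to 95.7% of Il1rn in cKO and 85.9% to 92.2% in Con libraries.

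Il15ra had 6 rows at 1 locus, although its sum was steady. The row with the highest mean was at 8.01, 9.90 and 25.8 FPKM in the cKO libraries, against 6.63, 7.71 and 13.8 FPKM in the Con libraries, and it took 65.4% of the gene in cKO_265 and 17.6% in Con_253. The fourth row was at 0.344 FPKM in cKO_265 and listed at 0 in Con_264, against 4.88 to 8.11 FPKM in the other 4 libraries, and the fifth row was listed at 0 in cKO_265. The lowest row was at 0.00821 to 0.181 FPKM in cKO and 0.197 to 2.58 FPKM in Con libraries and was the only one of the 6 without overlap (limma adjusted p = 0.378). The rows varied between libraries of 1 group far more than their sum did. Of the 17 rows of the 10 genes 0 were called (limma), against 0.0507% of all tested rows, and 4 had an unadjusted p under 0.05, against 13.0%.

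**Figure D2:**
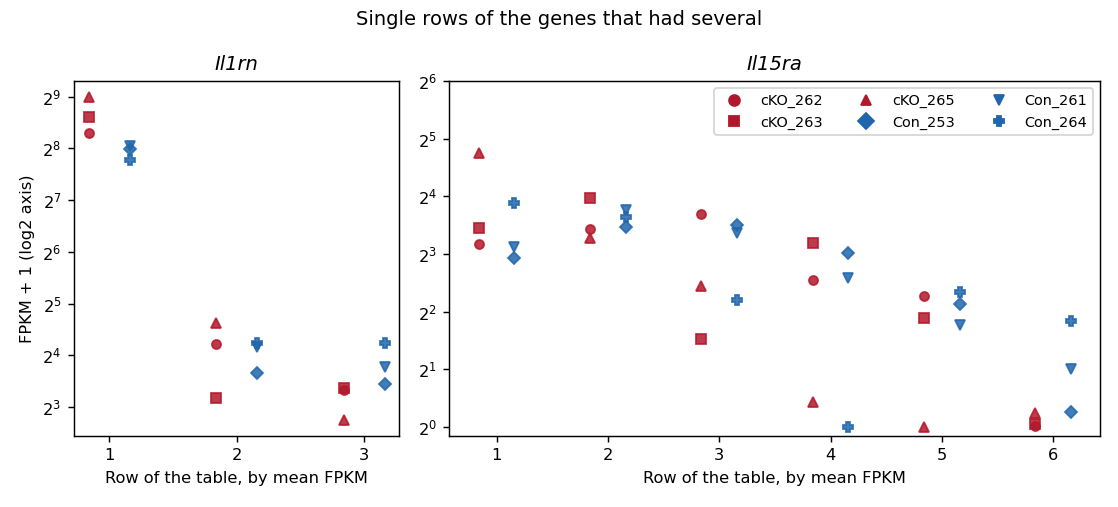
FPKM + 1 (log2 axis) of each row of Il1rn (left panel) and Il15ra (right panel), rows ordered by mean, with cKO libraries in red on the left of each row and Con libraries in blue. The first row of Il1rn lies higher and the third lower in cKO, and rows of Il15ra scatter within groups.

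The alarm cytokines of the IL-1 family were low and overlapped between groups. Il33, a nuclear alarmin, was at 2.73, 3.48 and 5.62 FPKM in the cKO libraries, against 2.01, 1.99 and 4.06 FPKM in the Con libraries. Con_264 lay above both cKO_262 and cKO_263. For Il33 the log2 difference was 0.43 (SE 0.29, 95% interval -0.22 to 1.08, limma adjusted p = 0.529). Leaving out Con_264 gave 0.68, leaving out cKO_265 gave 0.19, and leaving out Con_253 as well gave 0.07.

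Il18, which is made as a precursor and cut by caspase-1, was at 1.29, 2.44 and 4.53 FPKM in the cKO libraries, against 2.33, 2.01 and 2.79 FPKM in the Con libraries. The cKO values lay on both sides of the Con values, and the log2 difference was 0.07 (SE 0.30, 95% interval -0.62 to 0.76, limma adjusted p = 0.942). Without cKO_265 it was -0.26. Il1a, the alarmin form of IL-1, ranged over 1.60 to 3.56 FPKM in cKO and 2.27 to 3.56 FPKM in Con mTECs (log2 difference -0.15, SE 0.24, limma adjusted p = 0.825), and without cKO_262 the difference was 0.07. The FPKM of Il1rn over that of Il1a was 150 to 212 in cKO and 71.04 to 129 in Con libraries, given with no test.

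Il6, the one member that signals through gp130, was the lowest of the 10 in mean. It was at 0.171, 0.706 and 2.79 FPKM in the cKO libraries, against 0.720, 0.945 and 2.31 FPKM in the Con libraries. Both groups held 1 library above 2 FPKM and overlapped. The log2 difference was -0.18 (SE 0.42, 95% interval -1.15 to 0.78, limma adjusted p = 0.883), and it was 0.19 without cKO_262, 0.10 without Con_264 and -0.66 without cKO_265.

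**Figure D3:**
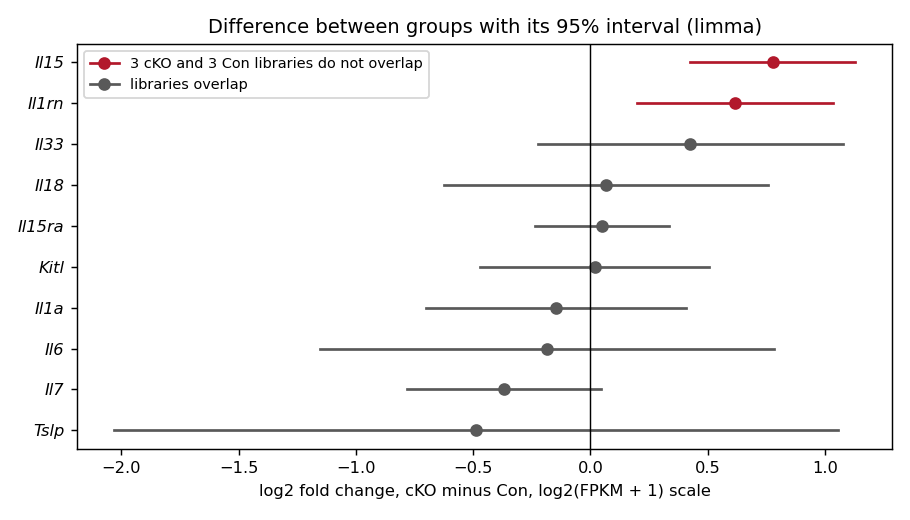
log2 difference, cKO minus Con on the log2(FPKM + 1) scale, of each of the 10 genes with its 95% interval from limma, in red where the groups do not overlap. The intervals of Il15 (0.42 to 1.13) and Il1rn (0.20 to 1.04) lie above 0 before adjustment, and the other 8 hold 0.

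Most of the 10 genes shared their highest and lowest library among the cKO libraries, and most shared the highest but not the lowest among the Con libraries. Among the cKO libraries cKO_265 had the highest value for 9 of the 10 genes and cKO_262 the lowest for 9, where over all tested genes cKO_265 was the highest for 37.3% and cKO_262 the lowest for 32.5%. Among the Con libraries Con_264 was the highest for 8 of 10, against 37.8% of tested genes. The lowest was Con_253 for 4, Con_261 for 4 and Con_264 for 2. The median deviation of the 10 genes from their own means was -0.27, 0.06 and 0.60 on the log2 scale in the cKO libraries, against -0.20, -0.19 and 0.28 in the Con libraries. These counts were made after the values were seen and have no test. Above 1 FPKM were 8, 9 and 10 of the 10 genes in cKO_262, cKO_263 and cKO_265, and 9, 9 and 10 in the Con libraries.

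**Figure D4:**
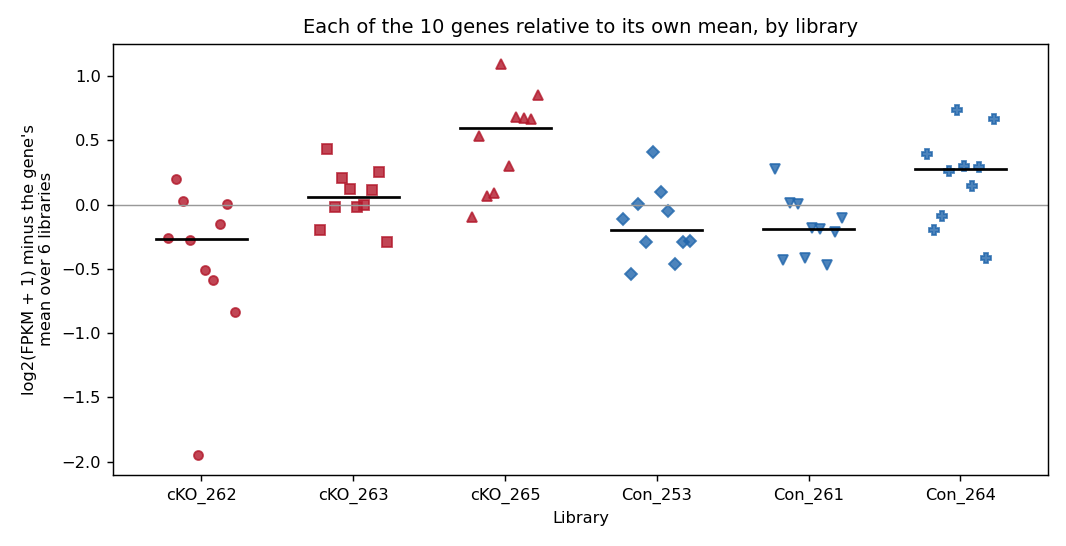
log2(FPKM + 1) of each of the 10 genes minus its own mean over the 6 libraries, by library, with black bars for the median of the 10. The median is highest in cKO_265 (0.60) and lowest in cKO_262 (-0.27), and that of Con_264 is above those of the other Con libraries, while single genes such as Il7 and Kitl depart from this order.

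Markers of other cells were read beside these values. The thymocyte list (10 of 10 genes in the tables, 2 of them below 1 FPKM throughout) summed to 29.8 to 37.0 FPKM in cKO and 41.6 to 67.8 FPKM in Con mTECs, the fibroblast list (8 of 8) to 43.98 to 50.1 and 50.3 to 56.2 FPKM, and the endothelial list (6 of 6) to 6.15 to 7.69 and 7.75 to 9.27 FPKM. The dendritic and macrophage list (9 of 10) summed to 274 to 304 FPKM in cKO and 351 to 398 FPKM in Con mTECs, most of it from Lyz2 (242 to 275 and 324 to 362 FPKM). The sums of these 4 lists were lower in cKO without overlap, those of the fibroblast and endothelial lists by a narrow margin. Of the 7 tested fibroblast genes 0 separated the groups and 3 were higher in cKO. Among tested genes, 2 of 6 dendritic and macrophage, 3 of 5 endothelial and 5 of 8 thymocyte genes were lower without overlap. Over all tested genes this share was 11.9%. In each of these other lists 1 tested gene was higher in value in cKO. The B cell list (5 of 5) summed to 40.8 to 56.0 FPKM in cKO and 38.8 to 51.7 FPKM in Con mTECs and overlapped, with Pax5 listed at 0 in cKO_265. The tuft-like mTEC list (11 of 11) summed to 58.4 to 72.4 FPKM in cKO and 161 to 195 FPKM in Con mTECs. All 11 of its genes were lower in cKO without overlap, against 11.9% of tested genes. Rgs13, Avil and Plcb2 were called lower (limma adjusted p = 0.0113, 0.0139 and 0.0384), against 0.0573% of tested genes called lower. The immature mTEC list (6 of 7) summed to 1379 to 1927 FPKM in cKO and 1353 to 1641 FPKM in Con mTECs. The corneocyte-like mTEC list (6 of 6) summed to 125 to 143 and 121 to 169 FPKM, and both sums overlapped. In the first, Trp63 (10.1 to 11.3 and 17.1 to 22.5 FPKM) and Itga6 were lower in cKO without overlap. In the second, Krt10 was lower and Krtdap higher without overlap. The part of these cells in the cytokine values was not tested, and in bulk RNA fewer cells of a type and less RNA per cell cannot be told apart.

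Receptors and signalling genes came from lists written from general knowledge. For the counts at an unadjusted p under 0.05 in each list, the shares over all tested genes were 6.81% higher and 7.82% lower. Of 13 genes for receptors and signalling of the common gamma chain, TSLP and KIT, 0 were called (limma), 2 had an unadjusted p under 0.05 with higher and 1 with lower values, and the median log2 difference was -0.10. Il2ra, the alpha chain of the IL-2 receptor, had the smallest p, at 53.2 ± 14.7 FPKM in cKO and 27.04 ± 2.11 FPKM in Con mTECs without overlap (log2 difference 0.92, SE 0.20, limma adjusted p = 0.125). Stat5a, a transcription factor that these receptors activate, averaged 241 ± 19.1 FPKM in cKO and 188 ± 27.7 FPKM in Con mTECs, and Kit, the receptor of KIT ligand, 9.90 ± 1.37 and 13.2 ± 1.39 FPKM (limma adjusted p = 0.329 and 0.332).

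The chains that IL-15 signals through were unlike in level. Il2rg, the common gamma chain, averaged 99.8 ± 3.62 FPKM in cKO and 99.3 ± 3.81 FPKM in Con mTECs, and Il2rb, the beta chain shared by IL-2 and IL-15, 3.37 ± 0.848 and 4.59 ± 0.345 FPKM. The IL-7 receptor gene Il7r was at 1.10 ± 0.378 and 1.55 ± 0.514 FPKM, and Crlf2, the chain specific to TSLP, at 4.08 ± 2.25 and 4.12 ± 1.07 FPKM. These 4 had limma adjusted p from 0.412 to 0.984.

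On the IL-1 side, 22 of 23 genes for receptors, processing and signalling were tested, 0 were called (limma), and 1 higher and 4 lower had an unadjusted p under 0.05 (median log2 difference -0.09). Of the 22 tested genes 6 were lower and 4 higher in cKO without overlap, against 11.9% and 9.59% of all tested genes. The 4 with the smallest p, picked by that p, were all among the 6 lower ones. Irak2, a kinase of the IL-1 receptor complex, averaged 34.6 ± 3.13 FPKM in cKO and 49.7 ± 3.74 FPKM in Con mTECs (log2 difference -0.51, SE 0.14, limma adjusted p = 0.174). Nlrp3, an inflammasome sensor, was at 0.366 ± 0.0587 and 0.913 ± 0.0796 FPKM. Irak3, an inhibitory relative of the kinases, was at 3.02 ± 1.05 and 5.34 ± 1.36 FPKM, and Capn1, of the calpain proteases that cut IL-1 alpha, at 12.3 ± 5.64 and 19.8 ± 0.781 FPKM. The adjusted p of these 3 lay between 0.224 and 0.269 (limma). Capn2, another calpain gene, named after its values were seen, was higher in cKO without overlap. It averaged 59.8 ± 8.58 FPKM in cKO and 45.4 ± 5.44 FPKM in Con mTECs (limma adjusted p = 0.305).

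The receptors showed smaller differences. Il1r1, the signalling receptor that the antagonist blocks, averaged 17.4 ± 1.22 FPKM in cKO and 19.4 ± 2.57 FPKM in Con mTECs, and its partner Il1rap 1.81 ± 0.674 and 1.85 ± 0.733 FPKM. The IL-18 receptor gene Il18r1 was at 41.5 ± 7.60 and 50.5 ± 6.56 FPKM, while its partner Il18rap, at 0.133 ± 0.0454 and 0.156 ± 0.145 FPKM, was below the filter. Il18bp, which neutralises IL-18, was at 10.997 ± 0.250 and 9.77 ± 0.459 FPKM, and the IL-33 receptor gene Il1rl1 at 0.782 ± 0.272 and 1.10 ± 0.1604 FPKM, each without overlap. Il1r2, the decoy receptor of IL-1, named after its values were seen, averaged 43.5 ± 3.81 FPKM in cKO and 36.6 ± 3.06 FPKM in Con mTECs, also without overlap. The tested genes of these had limma adjusted p from 0.466 to 0.983.

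The other ligands of the IL-1 family were 6 genes in the tables, all tested, of which 0 were called (limma), 0 had an unadjusted p under 0.05 and 5 had lower values in cKO. Il1f6 and Il1f8, which encode IL-36 alpha and beta, averaged 6.24 ± 2.37 and 1.69 ± 0.450 FPKM in cKO and 7.63 ± 0.596 and 2.67 ± 1.44 FPKM in Con mTECs. Il1f5, the IL-36 receptor antagonist, was at 4.94 ± 0.248 and 5.65 ± 0.887 FPKM, and Il1f10, which encodes IL-38, at 14.4 ± 8.03 and 11.02 ± 2.47 FPKM. The adjusted p of these 4 lay between 0.604 and 0.783 (limma).

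Of 18 genes of the gp130 family 17 were tested and 0 were called (limma), with a median log2 difference of -0.15. At an unadjusted p under 0.05 there were 0 higher and 3 lower, against 6.81% and 7.82% of all tested genes. Osmr, the oncostatin M receptor, averaged 4.64 ± 0.351 FPKM in cKO and 7.32 ± 1.33 FPKM in Con mTECs, and its ligand gene Osm 0.691 ± 0.0668 and 1.63 ± 0.798 FPKM, both without overlap. The cardiotrophin gene Ctf1 was at 1.90 ± 0.782 and 3.69 ± 1.03 FPKM and the LIF receptor gene Lifr at 16.5 ± 2.93 and 22.8 ± 5.02 FPKM. The IL-6 receptor Il6ra was at 4.66 ± 1.02 and 4.48 ± 0.989 FPKM and gp130 itself, Il6st, at 7.64 ± 2.998 and 8.91 ± 1.91 FPKM. These 6 had limma adjusted p from 0.223 to 0.941.

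Other interleukins and growth cytokines numbered 31 in the tables, of which 27 were tested and 0 were called (limma), while 3 higher and 3 lower had an unadjusted p under 0.05 (median log2 difference 0.01). Il25, a cytokine of intestinal tuft cells, was at 1.77 ± 1.60 FPKM in cKO and 7.26 ± 2.25 FPKM in Con mTECs (log2 difference -1.68, SE 0.37, limma adjusted p = 0.125) without overlap. Il17c, an epithelial relative of IL-17, was at 30.3 ± 9.76 and 13.7 ± 1.56 FPKM (log2 difference 1.04, SE 0.24, limma adjusted p = 0.135). Il13 averaged 24.3 ± 4.66 FPKM in cKO and 36.2 ± 4.85 FPKM in Con mTECs, and Il10 7.23 ± 4.04 and 13.6 ± 2.68 FPKM (limma adjusted p = 0.227 and 0.240). Il15 lay among a few cytokine and receptor genes with adjusted p between 0.1 and 0.2, some higher and some lower in cKO.

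**Figure D5:**
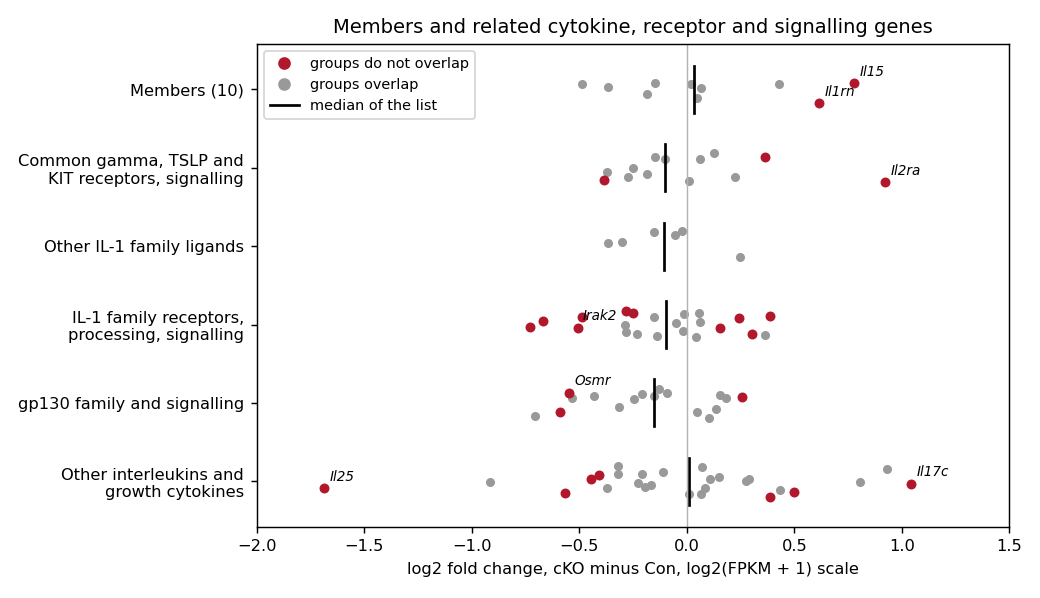
log2 difference, cKO minus Con on the log2(FPKM + 1) scale, of each tested gene of the members and of 5 related lists, in red where the groups do not overlap, with the list median as a black bar. The list medians lie between -0.15 and 0.03, and Il15, Il1rn, Il2ra and Il17c are to the right and Il25 to the left.

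The annotated positions are those of the tables in mm10, with starts raised by 1 base, and all 10 genes are protein coding. Il15 spans chromosome 8 from 82331624 to 82402586, Il15ra chromosome 2 from 11705293 to 11733985 and Il1rn chromosome 2 from 24336860 to 24351491. Il7 spans chromosome 3 from 7572077 to 7613427, Kitl chromosome 10 from 100015824 to 100100412 and Il1a chromosome 2 from 129297370 to 129309972. Il18 spans chromosome 9 from 50565368 to 50581837, Il33 chromosome 19 from 29925114 to 29960715 and Il6 chromosome 5 from 30013161 to 30019968. Apart from Tslp, each of these loci is listed for that gene alone.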

How the data were processed

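RNA from sorted mTECs was amplified with a whole-transcriptome kit for single cells before Illumina libraries were made, per the labels' protocols. The authors deposited 1 table of FPKM values per library, made with Bowtie2 2.2.5 and Cufflinks on mm10, per the submitters' processing notes. Not given in the sources used here are the Cufflinks version, the annotation and how libraries were scaled. Such amplification can favour transcripts by length and base composition. Each table held 25025 rows, rows of a symbol were summed, and 44 rows of 25 symbols turned into dates were left out, which left 20443 genes. The 15720 genes averaging 0.5 FPKM or more entered a fit of log2(FPKM + 1) by limma 3.58.1 under R 4.3.3 (mean-variance trend, 2-sided, Benjamini-Hochberg over all tested genes). The fit was also run on simulated data whose genes varied independently. That run cannot show how the fit behaves where genes of a library shift together. The added 1 understates differences of low genes. An exact permutation test of 3 against 3 libraries cannot go below p = 0.1, so none was used. The members and lists were chosen with earlier results of these data known. Named beside the 10 genes are their receptor chains and, in each related list, the 4 genes with the smallest unadjusted p. P-values set the difference of group means against the spread between these libraries, with limma's variance estimates sharing information across genes.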

Additional observations from a re-analysis of the deposited data

How the results depend on the processing

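The comparison was repeated under 15 alternatives (another pseudocount, no filter, a filter at 5 FPKM, which left 4 of the 10 genes, quantile normalization, median centring, arrayWeights, the highest row of a gene, no trend, each library left out, and Con_253 and cKO_265 both left out). The number of the 10 genes called stayed 0 in 14 of them. With arrayWeights 3 were called, Il15, Il1rn and Il7, in a fit that called 3025 genes (19.2% of those tested, against 12 genes with equal weights), and 1 of the 17 rows was called. The cause was not tested. With 1 library left out, 2 to 23 genes were called, 2 without any 1 of Con_253, Con_261 or Con_264, 19 without cKO_265 and 23 without cKO_262. Il15, Il1rn, Il33 and Il7 kept their sign throughout. The sign of Il15ra turned with quantile normalization (-0.037) and arrayWeights (-0.0064), that of Tslp and Il1a with arrayWeights (0.11 and 0.054), and that of Kitl and Il18 without both Con_253 and cKO_265 (-0.17 and -0.27). With 1 library left out, log2 differences ranged from -0.12 to 0.16 for Kitl, -1.16 to 0.36 for Tslp, -0.34 to 0.069 for Il1a, -0.26 to 0.38 for Il18, 0.19 to 0.68 for Il33, -0.52 to -0.27 for Il7 and -0.66 to 0.19 for Il6. The row-level alternatives were added after the data were seen. No paired analysis was possible because the groups share no replicate numbers. Depth is unknown from FPKM.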
